A study of Homo sapiens with 6 samples.

Results

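The Krüppel-like factors described here are 10 genes of this transcription factor family, KLF2, KLF3, KLF4, KLF5, KLF6, KLF7, KLF10, KLF11, KLF12 and KLF13, out of 18132 genes measured on the arrays. The genes were chosen with earlier results of these arrays known, KLF4 above all, and each gene is represented by the probeset selected on the highest mean log2 value over all 6 arrays, whatever the treatment. All 10 genes were found, with 34 probesets annotated to them alone. The tumors grew in NOD/SCID mice, 4 to 6 weeks old, from cells of the human triple-negative breast cancer line MDA-MB-231, injected with Matrigel under the skin of both flanks. The Epi group is 3 tumors of mice that received epinephrine subcutaneously at 2 mg/kg per day, 7 days ahead of the tumor cells, and the PBS group is 3 tumors of mice that received PBS in the same volume. NOD/SCID mice lack working T and B lymphocytes and keep vessels, fibroblasts and myeloid cells. RNA came from primary cells taken out of the tumors and was read on Affymetrix Human PrimeView arrays, whose probes are designed to human transcripts, and the labels do not say whether host cells were removed. The label code of Epi replicate 2 carries the number 20 where Epi replicates 1 and 3 carry 10, and it is not explained.

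Krüppel-like factors bind GC-rich and CACCC-containing DNA through 3 zinc fingers at their C-terminal end, while their N-terminal parts differ and decide which partners they bring to a promoter. KLF2, KLF4, KLF5, KLF6 and KLF7 form a branch with mostly activating members, KLF10, KLF11 and KLF13 recruit the SIN3A corepressor, and KLF3 and KLF12 recruit the CTBP corepressors. KLF4 is known from epithelial differentiation and, together with OCT4, SOX2 and MYC, from the reprogramming of somatic cells, and several members are immediate early genes whose RNA responds quickly to growth factors, stress and hormones.

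In the tumors of epinephrine-treated mice, the probesets that stand for KLF4, KLF6 and KLF11 were read lower on every array than on any array of PBS-treated mice. The groups overlapped on the second probeset of KLF4, on the other probesets of KLF11 and on most other probesets of KLF6. KLF5 was higher in replicates 2 and 3 and level in replicate 1, and the other members overlapped between the groups. None of the 10 passed the adjusted threshold of 0.05 in limma (a linear model for each gene, with Benjamini-Hochberg adjustment over all genes), and 0% of all genes did. With the replicate number as a block none of the 10 passed either, against 0.673% of all genes (122 of 18132). The differences below are therefore values on 3 arrays against 3, not called changes, and with this number an exact two-sided permutation test of a single gene cannot give a p under 0.1.

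The promoters of the 3 members whose groups did not overlap are shown here, since β-adrenergic receptors signal through cAMP to the factor CREB, which binds the cAMP response element (CRE), and since MYC with MAX binds the E-box. The sequences come from RefSeq with build GRCh38.p14 and run 5′ to 3′ from 250 bases before a start of the gene to 50 after. Capitals mark the CRE (TGACGTCA), its half-site (TGACG, in these windows also as CGTCA on the other strand) and the E-box (CACGTG). Of the 10 members 8 were matched in the table, and KLF3 and KLF10 were not used here.

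KLF4, chr9:107489720-107490019, minus strand: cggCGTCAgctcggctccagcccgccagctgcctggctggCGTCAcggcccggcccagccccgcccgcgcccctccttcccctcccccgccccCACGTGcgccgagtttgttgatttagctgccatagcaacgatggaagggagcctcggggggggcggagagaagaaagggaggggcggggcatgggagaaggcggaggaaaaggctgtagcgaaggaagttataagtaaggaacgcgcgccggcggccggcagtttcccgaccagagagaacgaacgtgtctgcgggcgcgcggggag
KLF6, chr10:3785160-3785459, minus strand: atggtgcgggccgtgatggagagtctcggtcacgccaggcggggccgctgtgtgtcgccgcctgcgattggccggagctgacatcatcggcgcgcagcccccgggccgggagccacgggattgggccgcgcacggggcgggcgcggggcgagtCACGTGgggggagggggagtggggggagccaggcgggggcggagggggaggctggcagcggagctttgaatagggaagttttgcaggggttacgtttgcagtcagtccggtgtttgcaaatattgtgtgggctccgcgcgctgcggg
KLF11, upstream start, chr2:10043579-10043878, plus strand: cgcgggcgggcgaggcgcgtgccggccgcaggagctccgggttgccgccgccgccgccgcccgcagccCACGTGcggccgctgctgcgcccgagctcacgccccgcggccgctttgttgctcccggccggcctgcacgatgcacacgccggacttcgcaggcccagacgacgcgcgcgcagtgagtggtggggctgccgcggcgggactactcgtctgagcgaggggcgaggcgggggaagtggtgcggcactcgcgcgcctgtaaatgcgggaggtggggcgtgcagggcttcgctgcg
KLF11, downstream start, chr2:10043971-10044270, plus strand: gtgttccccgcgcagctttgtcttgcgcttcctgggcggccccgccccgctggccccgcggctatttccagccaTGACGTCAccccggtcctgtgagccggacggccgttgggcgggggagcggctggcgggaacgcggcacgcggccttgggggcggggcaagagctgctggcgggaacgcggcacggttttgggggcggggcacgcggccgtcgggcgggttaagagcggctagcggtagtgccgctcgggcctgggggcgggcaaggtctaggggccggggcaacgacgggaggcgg

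The KLF4 window held half-sites beginning 247 and 210 bases before the start and an E-box 157 bases before it. The KLF6 window held an E-box 97 bases before the start and no half-site. The upstream window of KLF11 held an E-box 182 bases before the start, and its downstream window held a full CRE 176 bases before the start, which itself consists of overlapping half-sites. Over all 35116 windows of this length and on both strands, 1.85% held the full CRE, 24.6% a half-site and 7.26% the E-box. By gene, 2.25% had a full CRE in any window, 28.4% a half-site and 8.77% an E-box. Of the 8 members used 4 had an E-box, the 3 shown and KLF7, whose groups overlapped, and 1 had a full CRE, KLF11. Half-sites were found for KLF4 and KLF11, and also for KLF5 and KLF13, whose groups overlapped. A GC box (GGGCGG), of the kind family members bind, was found in 45% of all windows and in each of the 4 shown. The CACCC box, which they also bind, was found in 59.9% of all windows. It was absent from the windows of KLF4 and KLF6 and from the upstream window of KLF11, and the downstream window of KLF11 held 1. These are matches of letters, and no binding was measured on these arrays.

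KLF4 had log2 values of 7.36, 7.81 and 8.39 in Epi replicates 1 to 3 and of 8.47, 8.76 and 8.82 in PBS replicates 1 to 3. All 3 Epi tumors lay under all 3 PBS tumors, although Epi replicate 3 came close to PBS replicate 1. The mean was 7.85 ± 0.52 in Epi and 8.68 ± 0.18 in PBS tumors (SD, n = 3 each), so the Epi values spread more widely than the PBS values. The log2 difference, Epi minus PBS, was -0.83 (standard error 0.30, 95% interval -1.53 to -0.14), which is 0.561 times the PBS level. Its adjusted p was 1.00 in limma and 0.113 with the replicate block. The second probeset of KLF4 differed by -0.22 (standard error 0.21), with 7.11, 6.92 and 6.77 in Epi and 7.28, 7.09 and 7.08 in PBS tumors, and the mean of both probesets by -0.53. The array therefore gave the same direction on both probesets, with a much smaller size on the second. Without Epi replicate 3 the difference of the first was -1.10, and without Epi replicate 1 it was -0.59.

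KLF6, an immediate early gene of tissue injury that is spliced into several forms, had log2 values of 8.77, 8.78 and 8.93 in Epi and of 9.71, 9.23 and 9.79 in PBS replicates 1 to 3. The Epi tumors were nearly alike, and each lay under every PBS tumor. The log2 difference was -0.75 (standard error 0.25, 95% interval -1.31 to -0.19), or 0.595 times the PBS level, and the adjusted p from limma was 1.00 without and 0.172 with the replicate block. KLF6 has 5 probesets. Of the other 4, a pair differed by -0.81 and -0.62, and the remaining pair by -0.07 and -0.19. The mean of all 5 differed by -0.49, so the size for KLF6 depends on how its probesets are combined. The probesets with the small differences had mean log2 values of 5.13 and 4.69, under the dim level of 5.69, the 30th percentile of all genes.

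KLF11, which like KLF10 was described as an early gene of the TGF-β response, had log2 values of 6.52, 6.03 and 7.05 in Epi and of 7.31, 7.53 and 7.52 in PBS replicates 1 to 3. PBS tumors were within a narrow range, and Epi replicate 2 was the lowest of all. The log2 difference was -0.92 (standard error 0.30, 95% interval -1.60 to -0.24), or 0.529 times the PBS level, the lowest of the 10 members. The adjusted p from limma was 1.00 without and 0.0980 with the replicate block. Another probeset of KLF11, also above the dim level, gave 6.70, 6.53 and 6.42 in Epi and 6.29, 6.51 and 6.66 in PBS tumors, a log2 difference of 0.06, and the remaining one, which was dim, gave -0.20. With the mean of its 3 probesets KLF11 differed by -0.35. The difference of KLF11 thus rested on 1 of its 3 probesets.

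**Figure D1:**
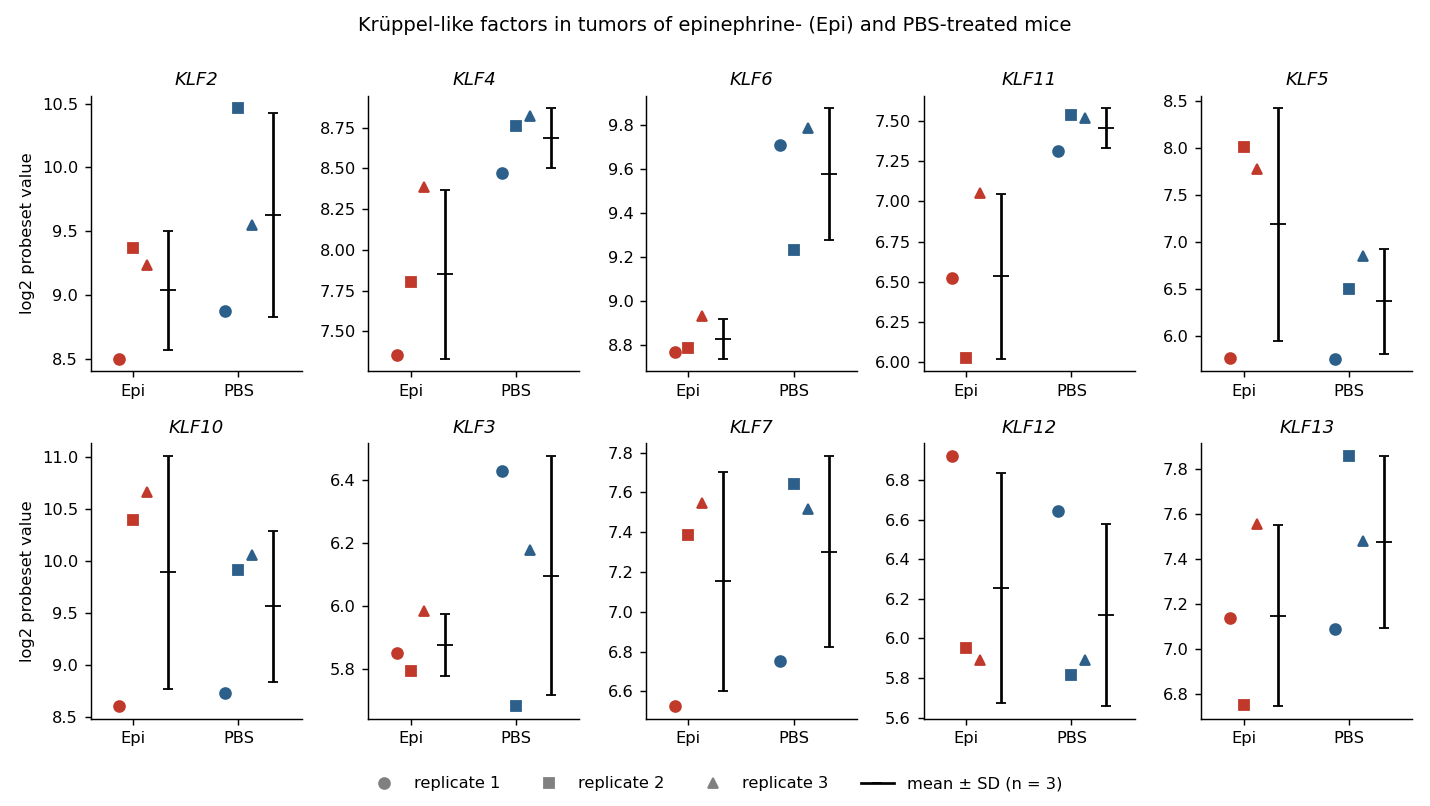
Log2 value of the brightest probeset (y axes, scaled per gene) of each of the 10 Krüppel-like factors in Epi tumors (red) and PBS tumors (blue). Symbols are replicates 1 to 3 and bars are the mean ± SD of 3 arrays, and the groups are apart for KLF4, KLF6 and KLF11 while both replicate 1 arrays sit low for KLF5 and KLF10.

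Every Epi array lay under every PBS array for these 3 of the 10 members, against 2.22% of all genes, and the opposite order was seen in 0 members, against 0.982% of all genes. The same 3 had an unadjusted p under 0.05 with a lower value in limma (0.8% of all genes), and 0 had one with a higher value (0.529%). In the fit with the replicate block KLF2 joined them, which made 4 lower (3.09% of all genes), and KLF5 was the 1 member that was higher (2.12%). Since the family was chosen with these results known, the shares describe the members and test nothing.

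KLF2, known from blood vessel endothelium and resting T cells, had log2 values of 8.50, 9.37 and 9.23 in Epi and of 8.87, 10.46 and 9.55 in PBS replicates 1 to 3. The groups overlapped, yet within each replicate number the Epi tumor was lower, by -0.37, -1.09 and -0.31 on the log2 scale. The mean difference was -0.59 (standard error 0.42, 95% interval -1.56 to 0.38), and -0.47 on its other probeset. Without PBS replicate 2, the brightest array for KLF2, it was -0.17, and without PBS replicate 1 it was -0.97. KLF2, KLF4, KLF6 and KLF11 were the 4 members that were lower in the Epi tumor of 3 of 3 replicate numbers, against 13.2% of all genes.

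KLF5, which drives the growth of basal epithelial cells and is known from basal-like breast cancer, stood at the other end of the family. Its log2 values were 5.76, 8.02 and 7.78 in Epi and 5.76, 6.50 and 6.86 in PBS replicates 1 to 3. In replicates 2 and 3 the Epi tumors were higher by 1.52 and 0.93, whereas the replicate 1 arrays read the same low value in both groups. The mean difference was 0.82 (standard error 0.58, 95% interval -0.51 to 2.15), with an adjusted p of 1.00 in limma and 0.286 with the block. Over replicates 2 and 3 alone, which are 2 pairs, the difference was 1.22, with an adjusted p of 0.0465 in limma with the block and 0.138 without it. The other probesets of KLF5 gave 0.76 and 0.89 and the same pattern over the arrays, so the 3 probesets of KLF5 were alike in size and direction. The probeset that gave 0.89 had a mean log2 value of 4.89, under the dim level of 5.69. The replicate 1 values of the probeset in use, 5.76 in both groups, were close to that level. Leaving out 1 array moved the difference between 0.40, without Epi replicate 2, and 1.53, without Epi replicate 1.

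The arrays of Epi and PBS replicate 1 were least like the rest over all genes, with Pearson correlations of 0.935 to 0.962 to the other 4, which correlated at 0.972 to 0.989 with each other, and they were dimmer at the median of all probesets (6.05 in Epi and 5.98 in PBS replicate 1, against 6.37 to 6.42 on the rest). KLF2, KLF4, KLF5, KLF7 and KLF10 had their lowest value of each group on these arrays, and KLF12 had its highest. The part of this array difference in the results of these genes was not tested. Within replicate 1 KLF4, KLF6 and KLF11 were lower in the Epi tumor, by -1.12, -0.95 and -0.79, and in replicates 2 and 3 alone the mean differences were -0.69, -0.65 and -0.98.

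**Figure D2:**
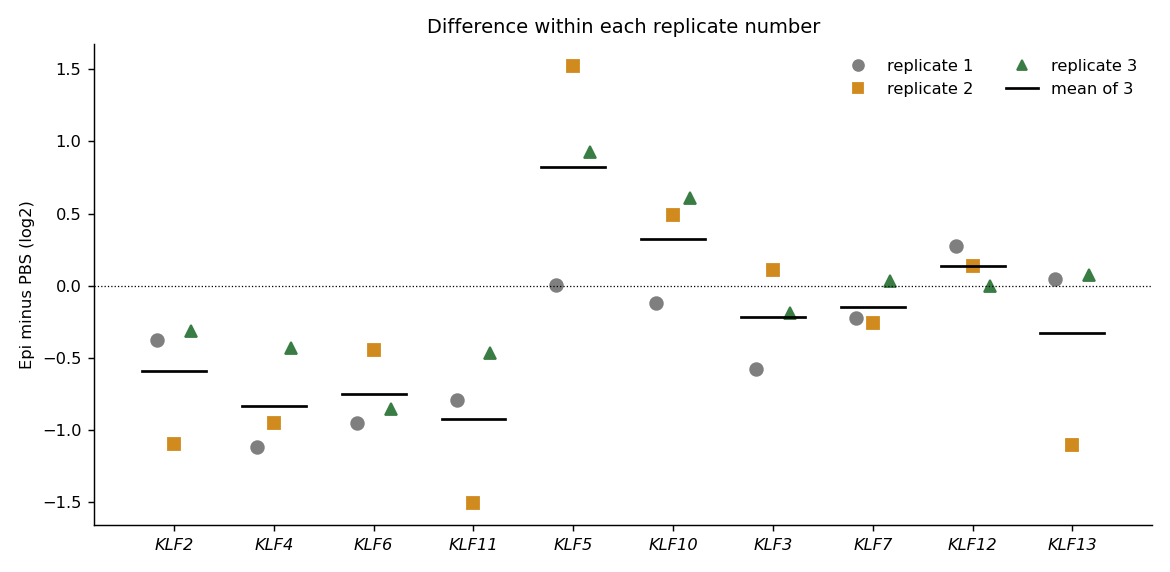
Log2 difference, Epi minus PBS (y axis), within each replicate number for each gene (x axis), with the mean of the 3 as a bar. KLF2, KLF4, KLF6 and KLF11 lie under 0 in all 3 replicates, and KLF10 lies above 0 in replicates 2 and 3, as KLF5 does with replicate 1 at about 0.

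KLF10, like KLF11 a TGF-β-inducible early gene, had log2 values of 8.61, 10.40 and 10.67 in Epi and of 8.73, 9.91 and 10.06 in PBS replicates 1 to 3. It was higher in the Epi tumors of replicates 2 and 3, by 0.49 and 0.61, and lower in replicate 1, by -0.12. The mean difference was 0.33 (standard error 0.57) and 0.23 on the other probeset. The sign for KLF10 turned when 1 array was left out, to -0.06 without Epi replicate 3 and -0.09 without PBS replicate 1. KLF13, another SIN3A-binding member, had 7.14, 6.75 and 7.55 in Epi and 7.09, 7.86 and 7.48 in PBS tumors. Its mean difference of -0.33 (standard error 0.31) came from replicate 2, where it was -1.10, and stood at 0.05 in replicate 1 and 0.07 in replicate 3. The other probeset of KLF13 differed by -0.42, with 0.26, -1.29 and -0.22 in replicates 1 to 3.

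KLF7, an activating member known from axon growth, had log2 values of 6.53, 7.39 and 7.55 in Epi and 6.75, 7.64 and 7.51 in PBS tumors, a difference of -0.15 (standard error 0.36), and its other 3 probesets gave -0.22 to -0.09. KLF3 and KLF12 are the CTBP-binding members. KLF3 had 5.85, 5.79 and 5.98 in Epi and 6.43, 5.68 and 6.18 in PBS tumors, a difference of -0.22 (standard error 0.26), with -0.59 to -0.09 on its other 4 probesets. KLF12 had 6.92, 5.95 and 5.89 in Epi and 6.65, 5.82 and 5.89 in PBS tumors, a difference of 0.14 (standard error 0.36). Of its other 5 probesets 1 gave 0.23 and the others -0.18 to -0.05, so the sign for KLF12 depends on which is taken. The intervals of KLF7, KLF3 and KLF12 reached from -0.97 to 0.67, from -0.82 to 0.38 and from -0.69 to 0.96, so none of these intervals excludes a difference in either direction.

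**Figure D3:**
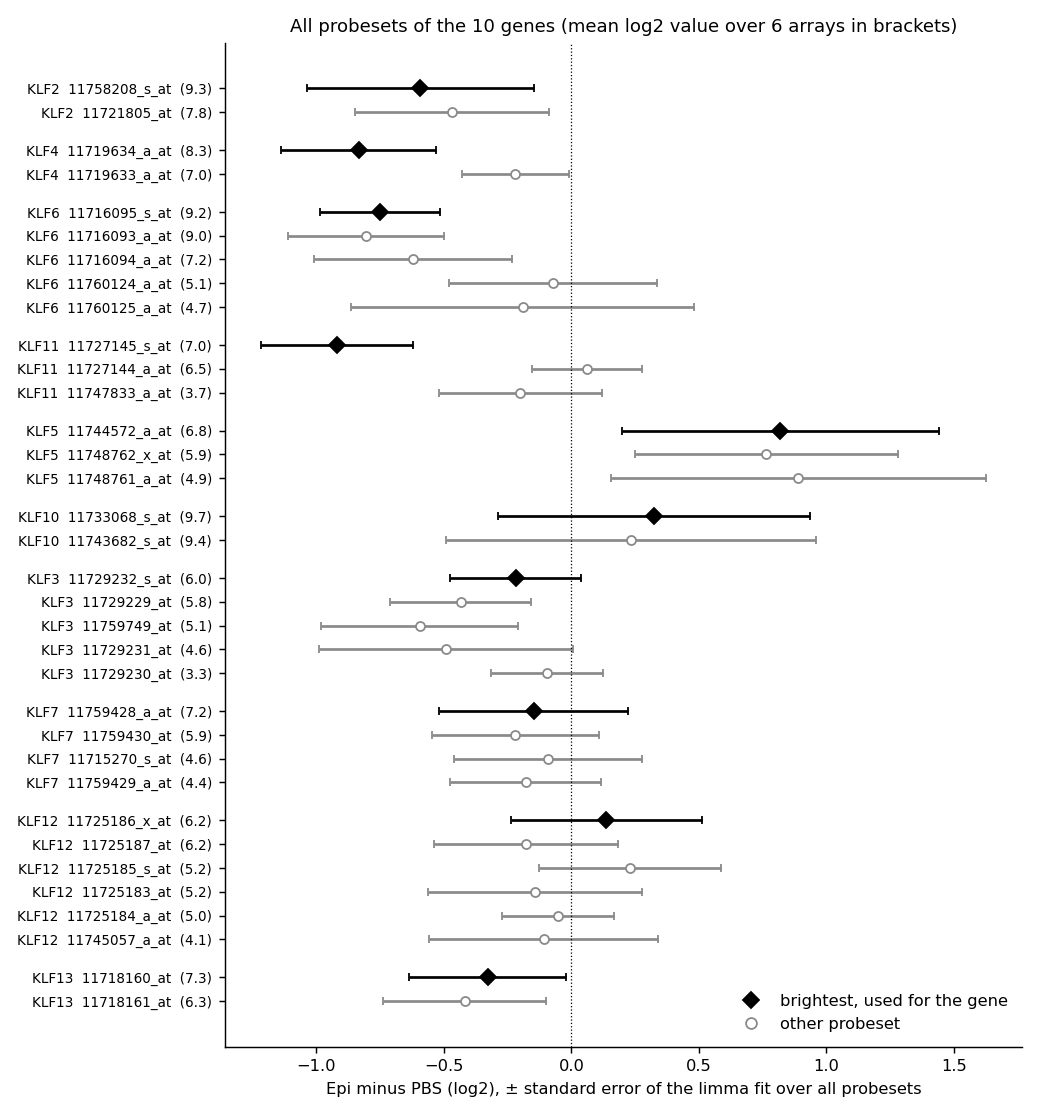
Log2 difference, Epi minus PBS (x axis), ± standard error from limma for all 34 probesets of the 10 genes (y axis, with the mean log2 value in brackets), with filled diamonds for the probesets that stand for the gene. The probesets of KLF5 lie together at 0.76 to 0.89, while KLF4, KLF6 and KLF11 each have another probeset closer to 0.

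Over the 10 members the log2 differences ran from -0.92 to 0.82, with 7 below 0 and 3 above, where 54.3% of all genes lay below 0. Their median was -0.27, against -0.02 over all genes, and leaving out 1 array moved it to -0.47 without PBS replicate 1, -0.44 without Epi replicate 3 and -0.16 without PBS replicate 2. Of the 34 probesets 26 were below 0 and 8 above, and 0 passed the adjusted threshold with or without the block. All 10 members were above the dim level on their brightest probeset, and 24 further probesets were set aside. The dim level is a percentile and does not show that a gene is expressed. ESR1, from the list of genes low in MDA-MB-231, averaged 7.09, above the means of KLF3, KLF5, KLF11 and KLF12, and the adipocyte marker ADIPOQ averaged 7.63. Some of the probesets in use carry a suffix (_s_at or _x_at) that marks probes shared between transcripts or open to cross-hybridization, those of KLF2, KLF3, KLF6, KLF10, KLF11 and KLF12 among them, and the zinc finger coding sequence is alike across the family.

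**Figure D4:**
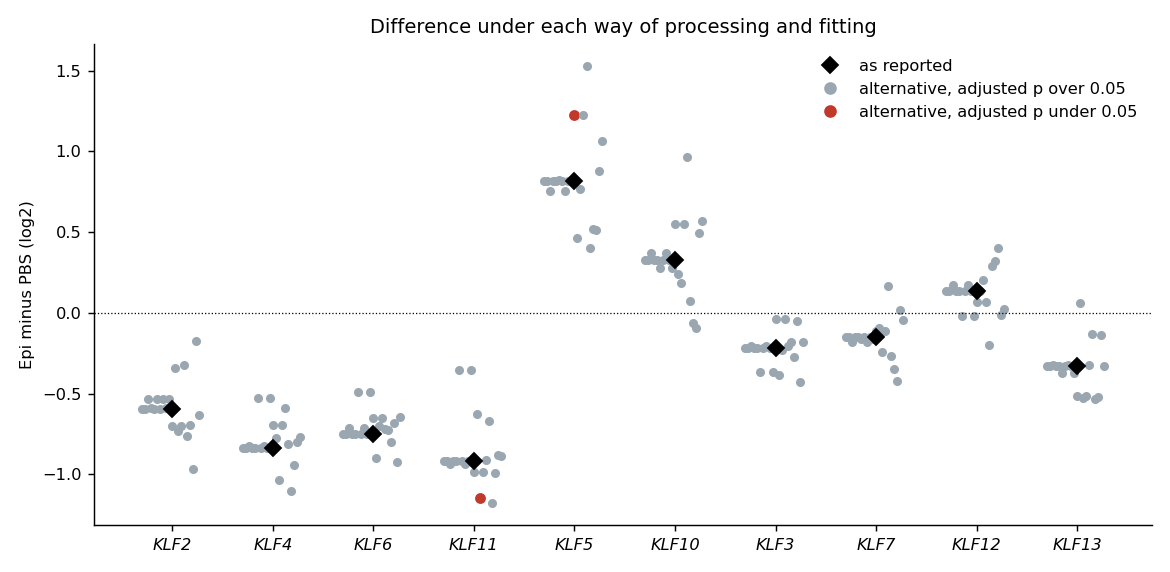
Log2 difference, Epi minus PBS (y axis), of each gene as reported (diamond) and in 20 other ways of normalizing, fitting or leaving out arrays (dots). Dots in red passed the adjusted threshold, which happened once for KLF5 and once for KLF11 (there in a fit of 2 pairs with 1 variance shared by all genes), and KLF4, KLF6 and KLF11 stayed below 0 in all 20.

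Of the other 7 family members on the array, 4 were dim, and none passed with or without the block (median 0.03). KLF9, which recruits SIN3A, had the largest difference, -0.77 (standard error 0.37), and it came mainly from replicate 2 (-1.93, against -0.06 and -0.33 in replicates 1 and 3). The second of its 4 probesets gave -0.73 and the remaining ones 0.03 each. KLF16 differed by -0.15. Of the 9 SP factors, relatives with the same zinc fingers, 4 were higher and 5 lower, with a median of -0.01 and none called. SP3 at 0.19 and SP5 at -0.21 had the largest differences among the 8 above the dim level, and SP4, which was dim, differed by -0.26.

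No partner or regulator of the family passed with or without the block, although more of them were lower than higher. Of 11 measured corepressors and coactivators 2 were higher and 9 lower, where 54.3% of all genes lay below 0 (median -0.16, 0 called), with SIN3B at -0.45 and the acetyltransferase gene KAT2B at 0.49. Of 11 ubiquitin and SUMO regulators 2 were higher and 9 lower (median -0.10, 0 called), with the deubiquitinase gene USP3 at -0.43 and the SUMO ligase gene PIAS1 at 0.33. Of the 7 genes of the MEK5-ERK5 route, which turns on KLF2 and KLF4 in endothelium, 0 were called (median -0.06), with the factor MEF2D at -0.73 (standard error 0.55) and the kinase gene MAP3K2 at 0.38.

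Among 12 reprogramming and pluripotency partners of KLF4 none was called (median -0.02), and 6 were dim. MYC had the largest difference, -0.82 (standard error 0.28), with every Epi tumor under every PBS tumor and differences of -0.65, -1.02 and -0.80 in replicates 1 to 3. Its adjusted p was 1.00 in limma and 0.0954 with the block. SOX2 differed by 0.14. On the probesets in use KLF4 and MYC thus differed by nearly the same size, although the second probeset of KLF4 differed by only -0.22. The groups of the other 11 genes of the list overlapped.

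Of 17 measured immediate early genes 4 were higher and 13 lower (median -0.09), where 54.3% of all genes lay below 0. JUN, a subunit of AP-1, fell in the fit with the block (-1.47, adjusted p = 0.00187 from limma), and the other 16 did not pass. FOSL1, another AP-1 subunit named here after its values were seen, differed by -0.96 with every Epi tumor under every PBS tumor (adjusted p = 0.0526 from limma with the block, 1.00 without). Of 15 genes of the TGF-β pathway none was called, and the median was 0.02. The receptor gene TGFBR1 and the ligand gene TGFB2 had the largest differences, 1.23 and 1.01 (adjusted p = 0.0557 and 0.0869 from limma with the block), both far smaller in replicate 1 (0.16 and 0.22) than in replicates 2 and 3. Of 19 measured genes reported as targets of KLF2, KLF4, KLF5 or KLF6, 11 were higher and 8 lower (median 0.06), and TXNIP, an inhibitor of thioredoxin, was the 1 called with the block (-1.16, adjusted p = 0.0331 from limma). JUN and TXNIP were not called without the block, and 0.673% of all genes were called with it. Of 16 proliferation genes 12 were higher and 4 lower (median 0.06, 0 called), with TOP2A at 0.71 and MCM6 at 0.33.

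The genes with the most KLF4-like course over the 6 arrays were picked by the root mean square difference between log2 values centred on each gene's own mean. They were GALNT3, an enzyme of O-glycosylation (0.0664), MERTK, a receptor tyrosine kinase (0.103), EREG, which encodes the EGF receptor ligand epiregulin (0.104), PXYLP1 (0.113) and VEPH1 (0.116), and their differences ran from -0.85 for EREG to -0.74 for PXYLP1. As this measure uses the group difference itself, it describes a likeness and tests nothing. Within the family KLF11 (0.278) and KLF6 (0.337) were closest to KLF4, at ranks 156 and 497 of all other genes, and KLF5 (1.00) was farthest, at rank 17676.

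Of the MDA-MB-231 markers all 10, VIM and CD44 among them, were above the dim level, and the median of their differences was -0.20. The list of receptor and luminal genes was mixed, with CDH1, EPCAM and PGR dim and KRT19 and AGR2 bright. Of these 10 genes 3 were higher and 7 lower (median -0.12), where 54.3% of all genes lay below 0. AGR2 was called higher with the block (1.26, adjusted p = 0.00740 from limma), and KRT19 differed by -0.78 and was not called. Because KLF2 and KLF4 are also expressed in endothelium, its markers stand beside them. Their mean log2 level was 5.87 to 6.17 in Epi and 5.59 to 6.42 in PBS tumors, and 0 of 10 were called. Of the 10, 6 were above the dim level, with PECAM1, KDR, VWF and ESAM averaging 7.67, 6.94, 6.95 and 7.81 over the 6 arrays. The other 4 were dim, TEK and EMCN among them at 3.92 and 3.34. PECAM1 differed by 0.44 and ESAM by -0.71, and for ESAM the groups did not overlap. Markers of fibroblasts, macrophages and leukocytes, adipocytes, skin keratinocytes and red blood cells had no called gene with or without the block, and list medians between -0.06 and 0.05. Host cells of these tumors are mouse cells, and the probes are designed to human transcripts. The levels and missing calls of these markers, those of endothelium included, are therefore no measure of how many host cells were present. The part of other cells in the results was not tested, and fewer cells of a type and less RNA per cell cannot be told apart in such bulk samples.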

How the data were processed

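Array data of 6 tumors, 3 Epi and 3 PBS, were used. The values are log2 intensities of 49395 probesets as deposited, made by RMA in Affymetrix Expression Console according to the submitters' processing notes (no version stated). The sources used here do not say which arrays were normalized together. The 102 control probesets were left out, and 44988 probesets with 1 gene in GEO's platform annotation were kept (1832 had several, 2473 none). The brightest probeset by mean over the 6 arrays stood for each of 18132 genes.

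The groups were compared by limma 3.58.1 under R 4.3.3, using lmFit and eBayes without covariates and a Benjamini-Hochberg threshold of 0.05 over all genes. Replicate numbers come from the sample titles. Deviations from the group means correlated at 0.630, 0.627 and 0.453 between arrays of replicates 1, 2 and 3, which was taken as pairing, so that a fit with the number as a block is given where it differs. What a number stands for is not given, and arrays of replicate 1 that stand apart raise such correlations. The labels call the tumors biological replicates but do not say that each came from its own mouse, so p-values measure the spread between these samples, which may be technical.

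The members, gene lists and tests were chosen with earlier results of these data known. Named genes were all members with each probeset, called genes of each list or else the 2 with the largest difference above the dim level (the 30th percentile of gene means, 5.69), and the 5 genes most like KLF4. Tried besides were the t-test of the methods, robust estimation with a variance trend, quantile normalization, median centring, leaving out dim genes, the mean of probesets, the replicate block alone and combined, and leaving out arrays. The number of arrays, not a read depth, sets the precision.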

Additional observations from a re-analysis of the deposited data

How the results depend on the processing

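Without the block, 0 genes and 0 members passed under the methods' t-test, variance trend, quantile normalization, median centring, the filter on dim genes and the mean of probesets, and without any single array. The unadjusted p was under 0.05 for 241 genes without the block and for 946 with it. With the replicate block 122 genes passed, 9 with quantile normalization as well, 20 with median centring and 81 with the mean of probesets. Over replicates 2 and 3 only, 16 passed without the block. With the block and 1 replicate number left out of both groups, 162 passed without replicate 1, 66 without replicate 2 and 129 without replicate 3. Of the members 0 to 1 passed there, KLF5 without replicate 1 and KLF11 without replicate 3 (adjusted p = 0.0319 from limma). These fits hold 2 pairs. Without replicate 2 or 3 every member had the same standard error (0.32 or 0.31), so that pass of KLF11 rests on 1 variance shared by all genes and not on its own spread. The block changed no call of a member on all 6 arrays. The median of the members stayed below 0 throughout, from -0.47 without PBS replicate 1 to -0.16 without PBS replicate 2.

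Single-array choices turned the sign of small differences. Leaving out 1 array, KLF7 ran from -0.42 to 0.17 (0.021 without PBS replicate 2), and KLF10 from -0.093 without PBS replicate 1 to 0.97, with -0.063 without Epi replicate 3. KLF12 was at -0.20 without Epi replicate 1, -0.013 without PBS replicate 2, -0.019 with the mean of probesets with or without the block, and -0.18, -0.14, -0.052 and -0.11 on 4 of its other probesets. KLF13 was at 0.061 with the block and without replicate 2, and KLF11 at 0.061 on another probeset. The cause was not tested. KLF2, KLF3, KLF4, KLF5 and KLF6 kept their direction in all 20 alternatives and on all their probesets, with -1.10 to -0.53 over the alternatives for KLF4, -0.92 to -0.49 for KLF6 and 0.40 to 1.53 for KLF5.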
